A study of Mus musculus with 18 samples.

Results

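H3K4me3 peaks that were wider in Men1 knockout islets than in control islets are described here. The product of Men1, menin, is part of MLL-type enzyme complexes, which methylate lysine 4 of histone H3. Trimethylation at that residue (H3K4me3) marks the promoters of active and poised genes. Its domains usually surround transcription start sites, and the broadest of them tend to lie at genes of cell identity. In mice, loss of menin from insulin-producing beta cells leads to islet tumours.

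The series profiled islet chromatin by ChIP-seq in 18 samples from 6 conditions, and 2 samples were used here. The first is the H3K4me3 library of pancreatic islets from mice with an islet-specific Men1 knockout, aged 2 months. The second is the H3K4me3 library of pancreatic islets from RIP-Cre mice of the same age, in which the rat insulin promoter drives Cre recombinase and no Men1 deletion is stated. The strain background of all animals was mixed, from C57BL/6, FVB/N and 129s6. The promoter that drives the knockout and whether animals were pooled are not stated in the sources used here, and an islet holds other cells beside beta cells. Each genotype has a single library, so replicates cannot be compared, no p-value was computed, and every difference is one between this pair of libraries.

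Each list gives the position of its peaks (mouse build mm9, counted from 1 here) and 1 score per peak, the authors' own value. The knockout list held 21434 peaks and the control list 21905. In 18299 cases 1 knockout peak and 1 control peak overlapped only each other, and 17716 of these pairs lay on chromosomes 1 to 19. A pair was called well-scored when both peaks scored 300 or more, which left 13769 pairs. A widened pair is a well-scored pair with a log2 ratio of knockout over control width of 0.25 or more. There were 337 of them, or 2.45% of the well-scored pairs. These pairs were chosen by the widths and scores of their peaks, so both are given as a description. Which border moved and where the pairs lie were not criteria of the choice. What lies beside them entered it in 1 way: a peak that reached a second peak of the other list was left out. That step can bear on which border moved among the pairs kept, and its part was not tested. No gene annotation or genome sequence of mm9 was used, so regions are given by position, without genes, strand or sequence, and the islet origin was not checked against marker genes. "Left" means the side of lower coordinates.

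Widening was the less common direction. The median well-scored pair had a log2 ratio of -0.10, and 2638 well-scored pairs (19.2%) had a ratio of -0.25 or less. As a counterpart of equal distance from that median, the 651 well-scored pairs (4.73%) at or below -0.45 are used below and called mirror pairs. They outnumber the 337 widened pairs, which lie equally far above the median. Ignoring the score, 853 of the 17716 one-to-one pairs (4.81%) reached a ratio of 0.25. Of these 853, 171 had a control score under 300 alone, 17 a knockout score under 300 alone, and 328 fell under it in both lists.

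The widened pairs were peaks of ordinary width in the knockout and narrow ones in the control. Their median width was 2001 bp in knockout islets (95% interval 1874 to 2100) and 1535 bp in control islets (1459 to 1606). Among the 13432 other well-scored pairs the medians were 2014 bp in knockout and 2184 bp in control islets. The widened pairs ranged from 790 to 9086 bp in knockout and from 507 to 7210 bp in control islets. Gains ran from 176 to 1876 bp with a median of 423 bp (interval 401 to 457), and 80% of them lay between 247 and 892 bp. The median log2 ratio was 0.34, the 90th percentile 0.51 and the highest 1.04.

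**Figure D1:**
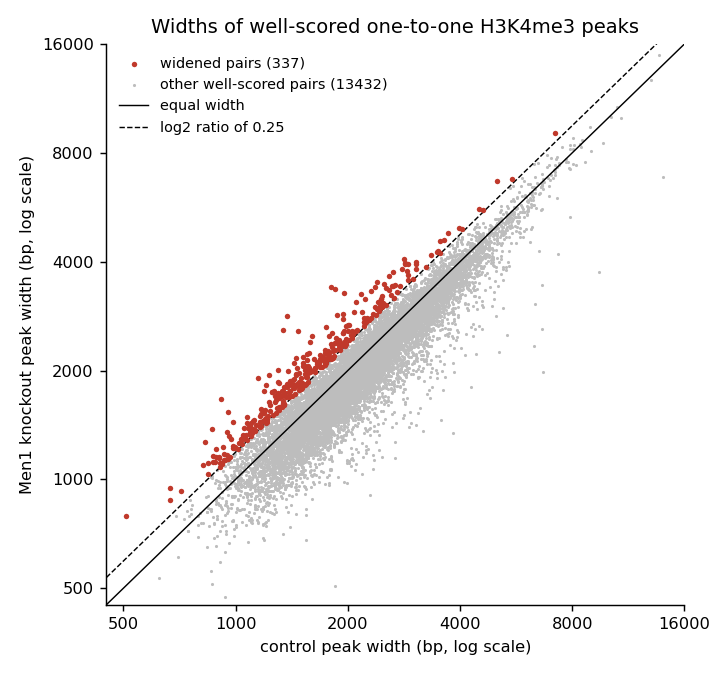
Width of the knockout peak (vertical, bp, log scale) against the control peak (horizontal, bp, log scale) for 13769 well-scored pairs. The 337 widened pairs (red) lie on or above the dashed line of a log2 ratio of 0.25, most of them at control widths under 2000 bp, while the grey cloud of the other 13432 pairs sits mainly below the line of equal width.

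How often a pair was widened depended on which list's width was used to sort the pairs. By knockout width the share of widened pairs was 1.05% under 1000 bp, 2.75% from 1000 to under 1500 bp and 2.53% at 4000 bp or more. By control width it was 21.9% under 1000 bp, 6.37% from 1000 to under 1500 bp and 0.79% at 4000 bp or more. Either width is part of the ratio that chose the pairs, and the mean of both widths leans to neither list. By mean width the share was 4.66% under 1000 bp (9 of 193 pairs), 4.42% from 1000 to under 1500 bp, 2.78% from 1500 to under 2000 bp, 1.71% from 2000 to under 3000 bp and 1.53% at 4000 bp or more (10 of 654 pairs).

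Widened pairs had lower median scores than the other well-scored pairs, and so did mirror pairs. The median score of widened pairs was 1467 in knockout and 1093 in control islets, against 3080 and 3100 for the other well-scored pairs. Many of the strongest peaks are tied at 3100, and 19.3% of widened pairs scored 3100 or more in both lists, against 49.0% of the others. Mirror pairs, which are among the others, had medians of 1140 in knockout and 2244 in control islets. Of the mirror pairs, 22.3% scored 3100 or more in both lists. By mean score, 6.96% of pairs from 300 to under 600 were widened, 5.84% from 600 to under 1200, 4.24% from 1200 to under 2000 and 0.98% at 3100 or more. The knockout peak scored higher in 177 widened pairs (52.5%), lower in 98 and equal in 62. Among the other pairs the knockout score was higher in 10.7%, lower in 42.4% and equal in 46.9%. A score at least 1000 above that of control was found in 35 widened pairs (10.4%) and in 46 others (0.34%). Scores depend on library depth, which is unknown, and wider peaks hold more reads, so these shares describe the pairs and are no separate evidence of gain. The part of depth in the widths themselves was not tested.

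The regions with the largest relative gain are named first. The rule named the 10 highest log2 ratios and the 10 largest gains in bp, and since 5 regions were in both lists, 15 regions resulted. On chromosome 2, a knockout peak of 2830 bp (28769487 to 28772316, score 1221) faced a control peak of 1374 bp (28771052 to 28772425, score 409). The log2 ratio of 1.04 was the highest of all. Its left border lay 1565 bp further out and its right border 109 bp further in, so the gain was on the left alone. On chromosome 1, the knockout peak spanned 2590 bp (175295886 to 175298475, score 2308) and the control peak 1342 bp (175296730 to 175298071, score 374). Here both borders moved out, the left by 844 bp and the right by 404 bp.

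On chromosome 5, a knockout peak of 3394 bp (102074665 to 102078058) faced a control peak of 1806 bp (102076013 to 102077818). Its left border gave 84.9% of a gain of 1588 bp. A second region on that chromosome had 1665 bp in knockout (118776641 to 118778305) and 916 bp in control islets (118776611 to 118777526). There the gain lay wholly to the right. On chromosome 7, 3369 bp in knockout (143409506 to 143412874) faced 1844 bp in control islets (143409984 to 143411827), the left border moving by 478 bp and the right by 1047 bp. The chromosome 6 region had 2578 bp in knockout (49771733 to 49774310) and 1474 bp in control islets (49771988 to 49773461), mostly gained to the right. The chromosome 8 region had 3271 bp in knockout (27468884 to 27472154) and 1951 bp in control islets (27469216 to 27471166), the left border moving by 332 bp and the right by 988 bp.

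The remaining regions of highest ratio were narrower than those above, apart from the second one on chromosome 5. On chromosome 18 the widths were 1905 bp in knockout (43846445 to 43848349) and 1145 bp in control islets (43846816 to 43847960), and both borders moved by nearly the same distance, 371 and 389 bp. On chromosome 16 they were 1534 bp in knockout (41532800 to 41534333) and 952 bp in control islets (41532836 to 41533787), with 93.8% of the gain on the right. On chromosome 7 a knockout peak of 1376 bp (19886072 to 19887447) faced a control peak of 866 bp (19886077 to 19886942). Its left borders differed by 5 bp and its right border lay 505 bp further out. In this region the knockout score (423) was below the control score (485) although the peak was wider.

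Ranked by base pairs, broad and saturated peaks entered. The largest gain, 1876 bp, was on chromosome 17, where 9086 bp in knockout (31037728 to 31046813) faced 7210 bp in control islets (31037882 to 31045091), and 91.8% of it lay on the right. A knockout-only peak of 2492 bp scoring 1119 (31028682 to 31031173) lay 6.71 kb to the left of that control peak, and the longer shift was to the right. Peaks of 1 list alone also lay away from the gain on chromosome 5 (control position from 102076013) and chromosome 7 (from 19886077). They lay on the side of the gain on chromosome 7 (from 56739338) and at the first region named on chromosome 2. The latter had a control-only peak scoring 73.9 at 5.56 kb to its left. The chromosome 1 region, which gained on both sides, had knockout-only peaks on both. On chromosome 9 the widths were 6671 bp in knockout (44186245 to 44192915) and 5038 bp in control islets (44186105 to 44191142). Its right border moved out by 1773 bp, the longest shift of any border, while the left border lay 140 bp further in. The chromosome 19 region had 6757 bp in knockout (44367386 to 44374142) and 5525 bp in control islets (44367535 to 44373059), with 87.9% of the gain on the right.

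In 2 further regions the gain was again mainly at 1 border. On chromosome 7, 4063 bp in knockout (56739282 to 56743344) faced 2825 bp in control islets (56739338 to 56742162), with 95.5% of the gain on the right. On chromosome 10, 3524 bp in knockout (29252862 to 29256385) faced 2396 bp in control islets (29253760 to 29256155), with 79.6% on the left. Of the 15 regions, 8 gained mainly on the right, 3 mainly on the left and 4 on both sides. Both peaks scored 3100 in 4 of the 15. A control score under 700 was found in 10 of the 15, and these were the 10 regions with the highest log2 ratios.

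**Figure D2:**
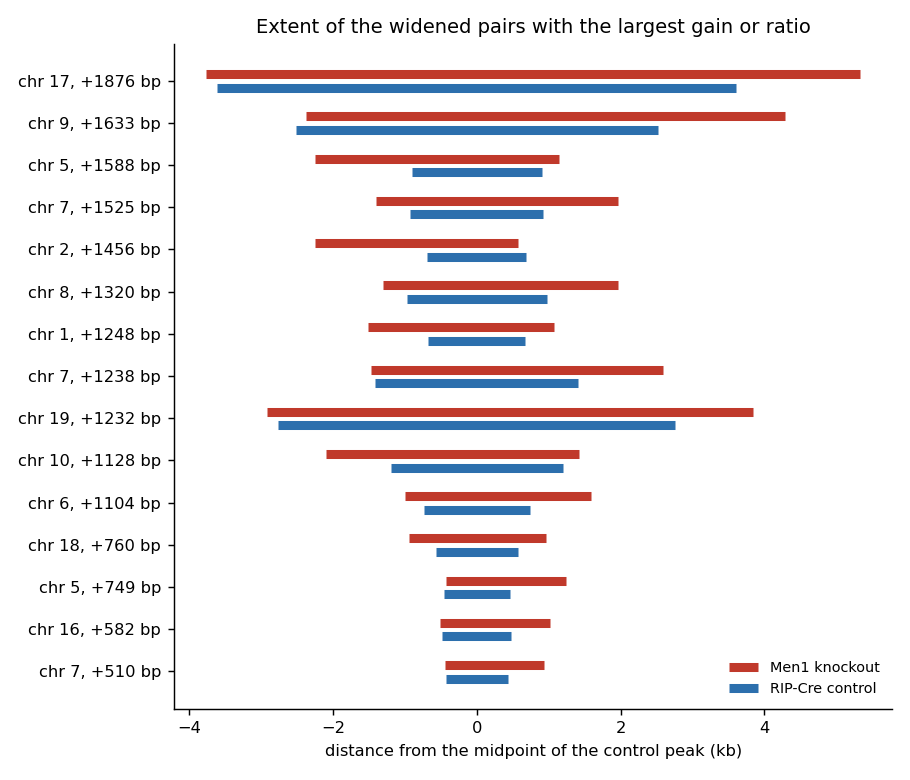
Extent of the knockout peak (red) and the control peak (blue) in the 15 named regions, in kb from the midpoint of the control peak, ordered by gain in bp. The gain is 1876 bp in the top region and 510 bp in the bottom one, and in 11 of the 15 regions 1 border gives 75% or more of it.

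The threshold cut through a continuous range. Just inside it were pairs with log2 ratios of 0.2501 on chromosome 8 (2331 bp in knockout and 1960 bp in control islets), 0.2501 on chromosome 6 (2067 and 1738 bp) and 0.2502 on chromosome 17 (3856 and 3242 bp). Just outside were ratios of 0.2499 on chromosome 15 (1446 bp in knockout and 1216 bp in control islets), 0.2498 on chromosome 1 (1063 and 894 bp) and 0.2496 on chromosome 7 (2814 and 2367 bp). At the score limit, the lowest scores inside were 300.7, 301.3 and 301.8, and the highest outside were 299.4, 296.2 and 296.0.

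The next question was which border extends. Most widened pairs grew at both ends, but unevenly. Both borders moved outward in 255 of the 337 pairs (75.7%, exact 95% interval 70.7 to 80.2). In 80 pairs (23.7%) 1 border lay further in than in control islets, and in 2 pairs 1 border was at the same base. The border that moved further lay out by a median of 321 bp (interval 295 to 344) and the other by a median of 79 bp (67 to 94). A gain was called 1-sided when 1 border gave 75% or more of it. By this measure 188 pairs (55.8%, interval 50.3 to 61.2) gained on 1 side and 149 (44.2%) on both. The share depends on the limit: it was 34.7% when 1 border had to give 90% of the gain, and 39.5% when the lesser border had to move out by under 50 bp. The sum of both shifts was fixed by the choice of pairs, but its split between the borders was not.

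Neither chromosomal side was favoured. The left border gave the gain in 98 pairs and the right border in 90, and the left moved further in 166 pairs and the right in 169. The median shift was 183 bp for left borders (interval 165 to 206) and 192 bp for right borders (160 to 213). Without start sites of mm9 genes it cannot be told whether the moving border faced into a gene. Over all 13769 well-scored pairs the outward shifts of the left and right border were only weakly related across pairs (Pearson's r 0.09, Spearman's rho 0.07). All these pairs come from the same pair of libraries.

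In left-sided pairs the left border moved out by a median of 455 bp and the right by 27 bp. In right-sided pairs the medians were 503 bp on the right and -0.5 bp on the left. The shift of the lesser border ranged from -340 to 240 bp in left-sided pairs and from -372 to 255 bp in right-sided pairs, and the limit of 75% caps it by definition. The other well-scored pairs had median outward shifts of -72 bp at the left border and -74 bp at the right. In 2-sided pairs the left border moved by a median of 182 bp and the right by 197 bp. Left-sided, right-sided and 2-sided pairs had median knockout widths of 2364, 2017 and 1840 bp and median control widths of 1815, 1513 and 1414 bp.

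**Figure D3:**
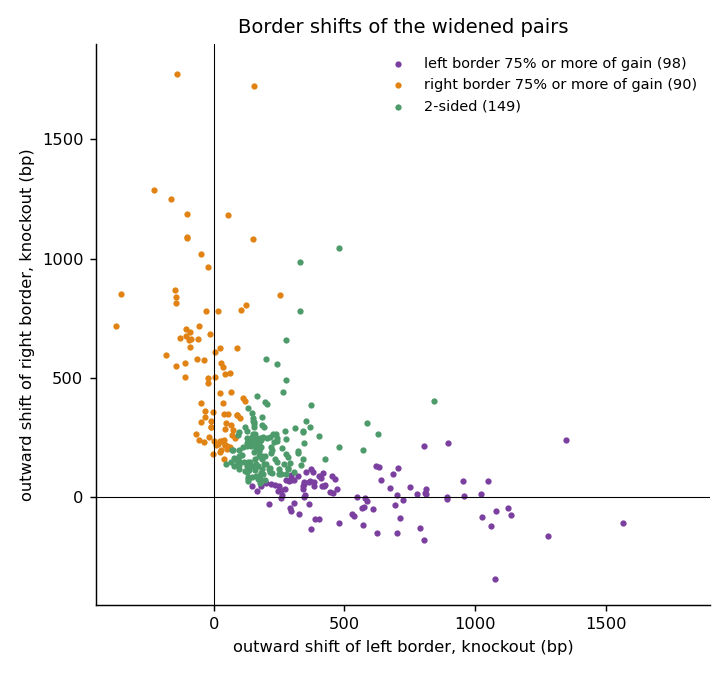
Outward shift of the right border (vertical, bp) against that of the left border (horizontal, bp) for the 337 widened pairs, with negative values where the knockout border lies further in. Large gains lie along the axes as 98 left-sided and 90 right-sided pairs, and the 149 pairs that gained on both sides form a cloud around medians of 182 bp (left) and 197 bp (right).

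Large gains were mostly at 1 border. The 1-sided share was 46.8% (interval 40.0 to 53.6) for gains under 500 bp, 68.1% (55.8 to 78.8) from 500 to under 750 bp, 72.4% (52.8 to 87.3) from 750 to under 1000 bp and 82.6% (61.2 to 95.0) at 1000 bp or more. In the last class these were 19 of 23 pairs. A similar order was seen by score, but score was not separated from the size of the gain. Of the 65 widened pairs with both scores at 3100 or more, 72.3% (59.8 to 82.7) were 1-sided, against 48.7% (39.4 to 58.1) of the 117 pairs whose lower score was under 600.

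Mirror pairs also lost width at 1 border more often when the loss was large. Their overall 1-sided share was 51.0% (interval 47.1 to 54.9), close to the 55.8% of the widened pairs, but their changes were larger (a median loss of 726 bp). In classes of equal change in bp, the widened pairs were the more often 1-sided in the lower classes. These classes count from equal width and not from the median, and the median change of all well-scored pairs was -149 bp. The shares were 46.8% of widened and 31.5% of mirror pairs under 500 bp (mirror interval 24.0 to 39.8), and 68.1% and 35.5% from 500 to under 750 bp (mirror interval 28.9 to 42.6). From 750 to under 1000 bp the intervals overlapped, with 72.4% of widened and 59.3% of mirror pairs, and so they did at 1000 bp or more, with 82.6% and 79.8%. A border moving against the change of the pair was found in 23.7% of widened and in 8.0% of mirror pairs. The inward shift of both knockout borders in the other well-scored pairs (medians of -72 and -74 bp) is given above, and its part in these differences was not tested.

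**Figure D4:**
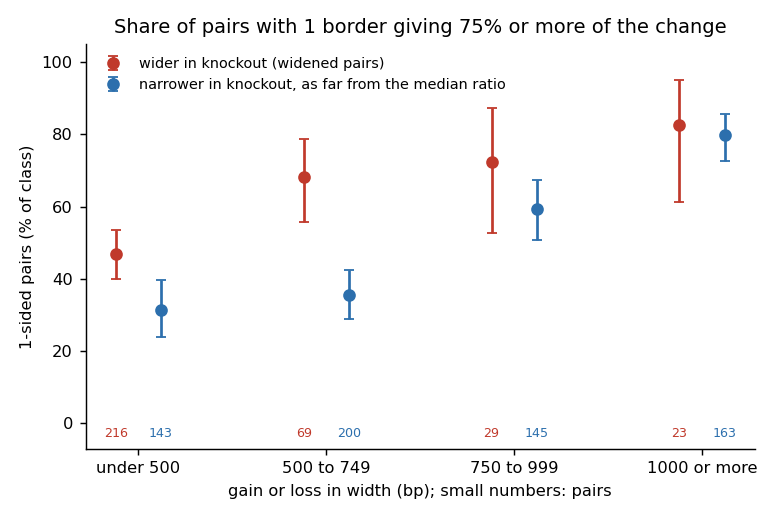
Share of pairs (vertical, %) in which 1 border gave 75% or more of the change, by size of the change in bp (horizontal), for widened pairs (red) and mirror pairs (blue), with exact 95% binomial intervals and the number of pairs under each point. The share is 46.8% of widened and 31.5% of mirror pairs under 500 bp, and 82.6% and 79.8% at 1000 bp or more.

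Among the pairs kept, the longer shift faced the nearer peak about as often as it faced away. Pairs in which a border reached a second peak of the other list were left out. These shares therefore cannot show whether extension favours the side of a close peak. The longer shift pointed to the side with the nearer peak of either list in 166 of 335 pairs (49.6%, interval 44.1 to 55.0), leaving out 2 pairs with equal shifts. For 1-sided pairs it was 93 of 188 (49.5%). Median distances from the control peak to the next peak were 43.6 kb on the side of the longer shift and 44.2 kb on the other. A peak within 50 kb was less often found beside widened pairs than beside the others. Such a peak was present for 68.5% of widened pairs (interval 63.3 to 73.5) and for 78.5% of the others (77.8 to 79.2). Within 5 kb the shares were 19.6% and 19.5%. The nearest peak of either list lay at a median of 20.3 kb (interval 17.6 to 23.2) from widened pairs and 19.1 kb (18.6 to 19.6) from the other well-scored pairs.

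Knockout-only peaks were more often close to widened pairs than to other pairs. Such a peak, which overlaps no control peak, lay within 5 kb of 15 widened pairs (4.45%, interval 2.51 to 7.24) and of 1.70% of the other well-scored pairs (1.49 to 1.93). Within 50 kb the shares were 18.1% (14.1 to 22.6) and 10.4% (9.86 to 10.9). Of the 15 pairs, 8 had the peak on the side of the longer shift and 7 on the other. Control-only peaks lay within 5 kb of 3 widened pairs (0.89%) and of 3.31% of the others. Pairs whose knockout peak reached a second control peak were left out as not one-to-one, and the part of this in the count was not tested. Within 50 kb, control-only peaks were near 18.1% of widened and 20.4% of other pairs.

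Few widened pairs lay within 100 kb of another. Widened pairs make up only 2.45% of the well-scored pairs. How many runs a set of like size from all well-scored pairs would form was not computed. With 100 kb or less between successive widened pairs, 315 stood alone and 22 formed 11 runs of 2, and no run reached 3. The gaps within the 11 runs ranged from 2.66 to 88.3 kb, with a median of 25.4 kb. In 9 of the runs no other well-scored pair lay between the partners. The longer shift pointed to the partner in 13 of the 22 pairs, and in 5 runs both partners extended towards each other. Both longer shifts pointed away from the partner in the runs on chromosome 11 (from 101798106), chromosome 7 (from 17611992) and chromosome 9 (from 107133205).

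In the tightest run the peaks converged. On chromosome 7, the pair already named at 19886077 to 19886942 (control position) gained 505 bp on its right. Its partner had 1761 bp in knockout (19889018 to 19890778) and 1192 bp in control islets (19889603 to 19890794) and gained 585 bp on its left. The gap between the peaks was thereby narrowed from both sides. On chromosome 9, a knockout peak of 4814 bp (89803250 to 89808063) faced a control peak of 3725 bp (89803150 to 89806874), with a shift of 1189 bp on the right. Its partner had 3965 bp in knockout (89814508 to 89818472) and 2850 bp in control islets (89815556 to 89818405), with a shift of 1048 bp on the left. Here too the peaks extended towards each other. On chromosome 11 the partners extended away from each other. The left one had 1346 bp in knockout and 1105 bp in control islets (control position 101798106 to 101799210) and gained on its left, and the right one had 1785 bp in knockout and 1437 bp in control islets (101824629 to 101826065) and gained on its right.

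Larger groups appeared only with longer gaps, and those given next were picked with their values known. With 250 kb allowed, 1 run of 3 was found on chromosome 7, with control positions from 86680109 to 86946667. Its gains were 285, 439 and 711 bp, at 3 of the 8 well-scored pairs in that span. With 1 Mb (1000 kb) allowed there was 1 run of 5, on chromosome 2 (25173000 to 26998556), where 5 of 43 well-scored pairs were widened, by 359 to 714 bp. Of the 3 runs of 4, all on chromosome 7, the first held 4 of 27 well-scored pairs (16506110 to 17642431) and the second 4 of 38 (19331537 to 20190391). The third held 4 of 24 (149085978 to 150943740), with gains of 825, 986, 592 and 891 bp, each almost wholly at 1 border. Most well-scored pairs inside these groups were thus not widened.

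Chromosome 7 had the most widened pairs. They were 38 of its 1037 well-scored pairs (3.66%, interval 2.61 to 4.995), followed by 3.33% on chromosome 16 and 3.16% on chromosome 14. The lowest shares were 1.15% on chromosome 12 (6 of 522 pairs, 0.42 to 2.48) and 1.44% on chromosome 6 (10 of 694). These intervals overlap for most chromosomes, and chromosome 7 was picked as the highest of 19. The median log2 ratio of all well-scored pairs ranged from -0.12 on chromosome 6 to -0.08 on chromosome 7. On chromosome 12, with the lowest share, it was -0.11, as on chromosome 2, where 2.95% of pairs were widened.

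The pairs next to widened pairs were compared with those next to other pairs. The nearest other well-scored pair was widened too for 24 of 337 widened pairs (7.12%, interval 4.62 to 10.4) and for 273 of the 13432 other pairs (2.03%, 1.80 to 2.29). At a score minimum of 1000 these shares were 2.99% (0.98 to 6.85) and 1.24% (1.05 to 1.47), with overlapping intervals, and at a log2 ratio of 0.5 or more they were 2.44% (1 of 41 pairs) and 0.20%. The neighbour's median log2 ratio was -0.07 (interval -0.09 to -0.05) beside widened pairs, -0.10 beside the other pairs, and -0.14 (-0.15 to -0.12) beside mirror pairs. Within classes of distance to the neighbour the intervals of the medians for widened and other pairs overlapped in 3 of 4 classes, and within classes of the neighbour's score in 2 of 3. They were apart for neighbours closer than 10 kb, at -0.041 (-0.072 to 0.033) beside widened and -0.091 (-0.098 to -0.084) beside other pairs. They were also apart for neighbours with a mean score under 1200, at -0.053 (-0.103 to 0.053) and -0.136 (-0.144 to -0.126). A neighbour wider in the knockout by any amount was found for 33.2% of widened pairs (28.2 to 38.5) and 24.9% of the others (24.2 to 25.6). Partners that are each other's nearest pair are counted from both sides, so these intervals are too narrow.

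By distance, the neighbour was widened for 7.35% of 68 widened pairs with the neighbour closer than 10 kb (interval 2.43 to 16.3), 5.80% of 69 at 10 to under 30 kb (1.60 to 14.2), 5.68% of 88 at 30 to under 100 kb (1.87 to 12.8) and 8.93% of 112 at 100 kb or more (4.36 to 15.8). With so few pairs per class these intervals overlap, so no order by distance can be read from them. For the other pairs the shares were 2.16%, 1.76%, 1.87% and 2.61% in the same classes. Neighbours of widened pairs also scored somewhat lower, with a median mean score of 2750 against 3012 beside the other pairs, and lower-scoring pairs were more often widened. Among neighbours of like score the share was higher beside widened pairs in each of 3 classes, with overlapping intervals in the middle one. These shares rest on 11, 7 and 6 widened neighbours, from the lowest class up. Mutual partners are again counted from both sides, so the intervals are too narrow. The part of the neighbour's score was not tested. With a neighbour's mean score under 1200 it was 13.6% for widened pairs (7.0 to 23.0) and 4.93% for the others (4.11 to 5.85). From 1200 to under 3100 it was 5.98% (2.44 to 11.9) and 2.11% (1.71 to 2.56), and at 3100 or more it was 4.32% (1.60 to 9.16) and 0.84% (0.63 to 1.09).

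**Figure D5:**
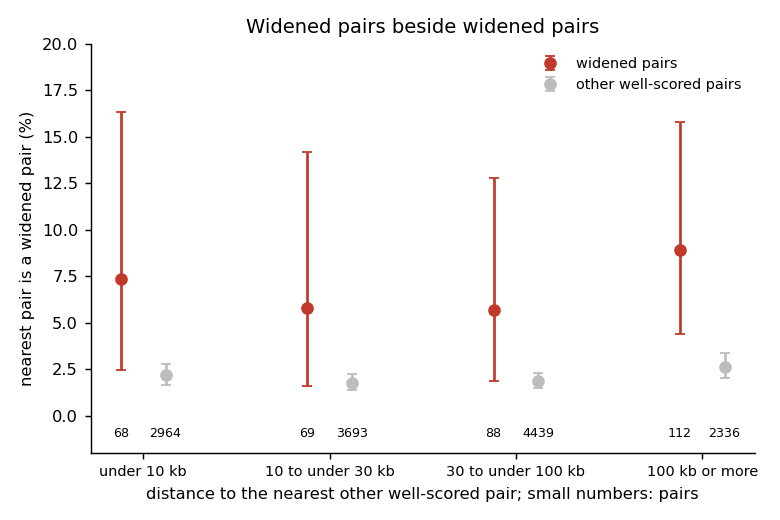
Share of pairs (vertical, %) whose nearest other well-scored pair was widened, by distance to that pair (horizontal), for widened pairs (red) and other well-scored pairs (grey), with exact 95% binomial intervals and the number of pairs under each point. The share lies between 5.68% and 8.93% for widened pairs and between 1.76% and 2.61% for the others.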

How the data were processed

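Islets were profiled by ChIP-seq, and the peak lists of 2 H3K4me3 libraries were used. Bowtie, MACS 1.4.2 and mm9 are named in the submitters' processing notes. Whether input was used, what was filtered and whether animals were pooled is not stated in the sources used here. The deposited lists hold positions and a score per peak. MACS 1.4.2 writes minus 10 times log10 of the p-value as score, but the lists do not state this. Read counts were not used here and depth is unknown, so no limit of detection can be given. Lists were matched to samples by genotype, age and mark. Their names hold an unexplained "2nd".

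Peaks overlapping by 1 bp or more were paired with numpy 2.4.6 and pandas 2.3.3 (Python 3.11.15). bedtools 2.31.1 gave the same 18299 one-to-one pairs. In a test on simulated data, 200 of 21215 autosomal control peaks were extended, and all 200 came back with their true borders. The remaining peaks were not changed, so the absence of false calls followed from the design. The test checks the code alone and gives no rate of missed or false calls between real lists. Medians have order-statistic and shares exact (Clopper-Pearson) 95% intervals from scipy 1.17.1. They treat pairs as independent and cover neither animals nor libraries.

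Regions were named by rule: the 10 highest ratios, the 10 largest gains, every run of 3 or more within 100 kb (there was none) and 3 pairs on each side of the log2 limit. The runs of 2, the pairs at the score limit and the mirror pairs were added after values were seen. The pairs, lists and tests were chosen with earlier results of these data known. Gene lists and annotation were not used, since the gene table at hand describes another build (GRCm38).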

Additional observations from a re-analysis of the deposited data

How the results depend on the processing

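Of 74 recomputed values, 40 stayed inside the interval of the reported value, or within 1.5 times for a count, and 34 did not. The 337 widened pairs became 624, 220 and 167 at score minimums of 100, 600 and 1000, 41 at a log2 ratio of 0.5 and 877 at 0.25 above the median ratio. Under the same 5 settings, in that order, runs within 100 kb numbered 38, 6, 3, 1 and 77, against 11, and the median gain was 368.5, 466, 493, 760 and 301 bp, against 423 bp. The median log2 ratio was 0.36 at a score of 100, 0.32 at 1000, 0.58 at a ratio of 0.5 and 0.22 at 0.25 above the median. Counts and gains follow directly from these limits. The share of widened pairs beside a widened pair was 4.55% at a score of 600, 2.99% at 1000, 2.44% at a ratio of 0.5 and 10.6% at 0.25 above the median, with 1.498%, 1.24%, 0.204% and 5.69% beside the other pairs. It was the higher in each case, but at a score of 1000 and a ratio of 0.5 the intervals overlapped. The 1-sided share was 65.9% at a ratio of 0.5, 64.6% after merging, 34.7% when 90% of the gain was asked of 1 border and 39.5% when the lesser border had to move out by under 50 bp. Left-sided pairs made up 60% of 1-sided pairs at a score of 1000 (interval 49.7 to 69.7), against 52.1%. Merging peaks within 1 kb gave 19 runs, a median gain of 501.5 bp and a median log2 ratio of 0.35. Runs numbered 7, 20 and 57 with gaps of 50, 250 and 1000 kb. The cause of the moves other than those set by a limit was not tested. The share facing the nearer peak stayed inside its interval under each setting run. No paired analysis was possible because there is a single library of each genotype, and for the same reason no library could be left out.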

Other observations

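On the X chromosome, which the choice of pairs left out, 8 of 452 well-scored pairs (1.77%, exact 95% interval 0.77 to 3.46) reached a log2 width ratio of 0.25, against 2.45% on the autosomes. In 6 widened pairs the knockout score was at least 1000 below the control score although the knockout peak was the wider one.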
